A study of Homo sapiens with 24 samples.

Results

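ATF4 and 9 genes that act with it or downstream of it were followed through 8 groups of arrays from 3 human breast cancer cell lines. The set was chosen by name as regulators and non-metabolic effectors of the integrated stress response, and every probe set of each gene was taken. The regulators are ATF4, ATF3, DDIT3, CEBPB and CEBPG, and the effectors are TRIB3, CHAC1, NUPR1, SESN2 and INHBE. They are 10 of the 19775 genes named on the array and hold 15 of its 54675 probe sets. All 10 genes and all 15 probe sets passed the filter on low signals.

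Cells under amino acid shortage, unfolded protein in the endoplasmic reticulum, haem shortage or mitochondrial stress phosphorylate the translation factor eIF2. General protein synthesis then slows, while the mRNA of the bZIP transcription factor ATF4 is translated more. ATF4 pairs with other bZIP proteins, often C/EBP family members, at CCAAT-enhancer binding protein and ATF response elements, and turns on genes for amino acid supply, for tRNA charging and for stress signalling. Much of the control of ATF4 lies in translation, which arrays do not see: only RNA was measured here.

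The shRNA experiment had 6 arrays, all of SUM149PT cells infected with lentivirus. Cells with an shRNA against MCT1, a carrier of lactate and pyruvate across the plasma membrane, were set against cells with a scrambled shRNA, 3 arrays each. Both groups had been kept in puromycin at 2 µg/ml for 5 days before RNA was extracted. The inhibitor experiment had 18 arrays, with AZD3965, an inhibitor of MCT1, set against DMSO after 24 hours in HS578T, SUM149PT and SUM159PT, 3 arrays per group. HS578T was grown in DMEM, and the other lines in F12 medium with insulin, hydrocortisone and EGF, so line and medium cannot be told apart. The labels describe only 1 MCT1 shRNA and give no AZD3965 dose. The design text calls the lines glycolytic and asks whether MCT1 has a part in that.

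Values are MAS5 signals, a linear brightness per probe set scaled to a common level on each array, with array medians between 49.2 and 67.4 units. On scramble array 3 the 3' to 5' signal ratio of the actin control probe sets was 53.8 and that of GAPDH was 2.35, against 1.2 to 2.14 and 0.798 to 0.948 on the other 23 arrays. For this array, the members' shRNA values and the calls of members and pathway lists are given with and without it. The summed signal of 7 epithelial markers was 46782 to 64769 in the SUM149PT groups, 7703 to 9130 in HS578T and 9429 to 13249 in SUM159PT. EPCAM averaged 14967 units in SUM149PT under DMSO, against 12.5 in HS578T and 54.6 in SUM159PT, and the mesenchymal factor ZEB1 averaged 86.1, 4895 and 3763 units in the same lines. Not every marker ran this way. KRT14, an epithelial marker, averaged 1881 units in HS578T under DMSO and 234 in SUM149PT. FN1, a mesenchymal one, averaged 20367 units in SUM149PT under DMSO and 16757 in SUM159PT. Summed leukocyte markers (3 genes) stayed between 18.4 and 164 units on every array, endothelial markers (3 genes) between 115 and 450, and adipocyte markers (3 genes) between 12.4 and 228, with none listed at 0. The probe sets of the gene the shRNA targets are not reported here, so the knockdown was not checked. Since the labels do not say whether arrays of a group came from separate cultures, p-values measure the spread between arrays, which may be technical.

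**Figure D1:**
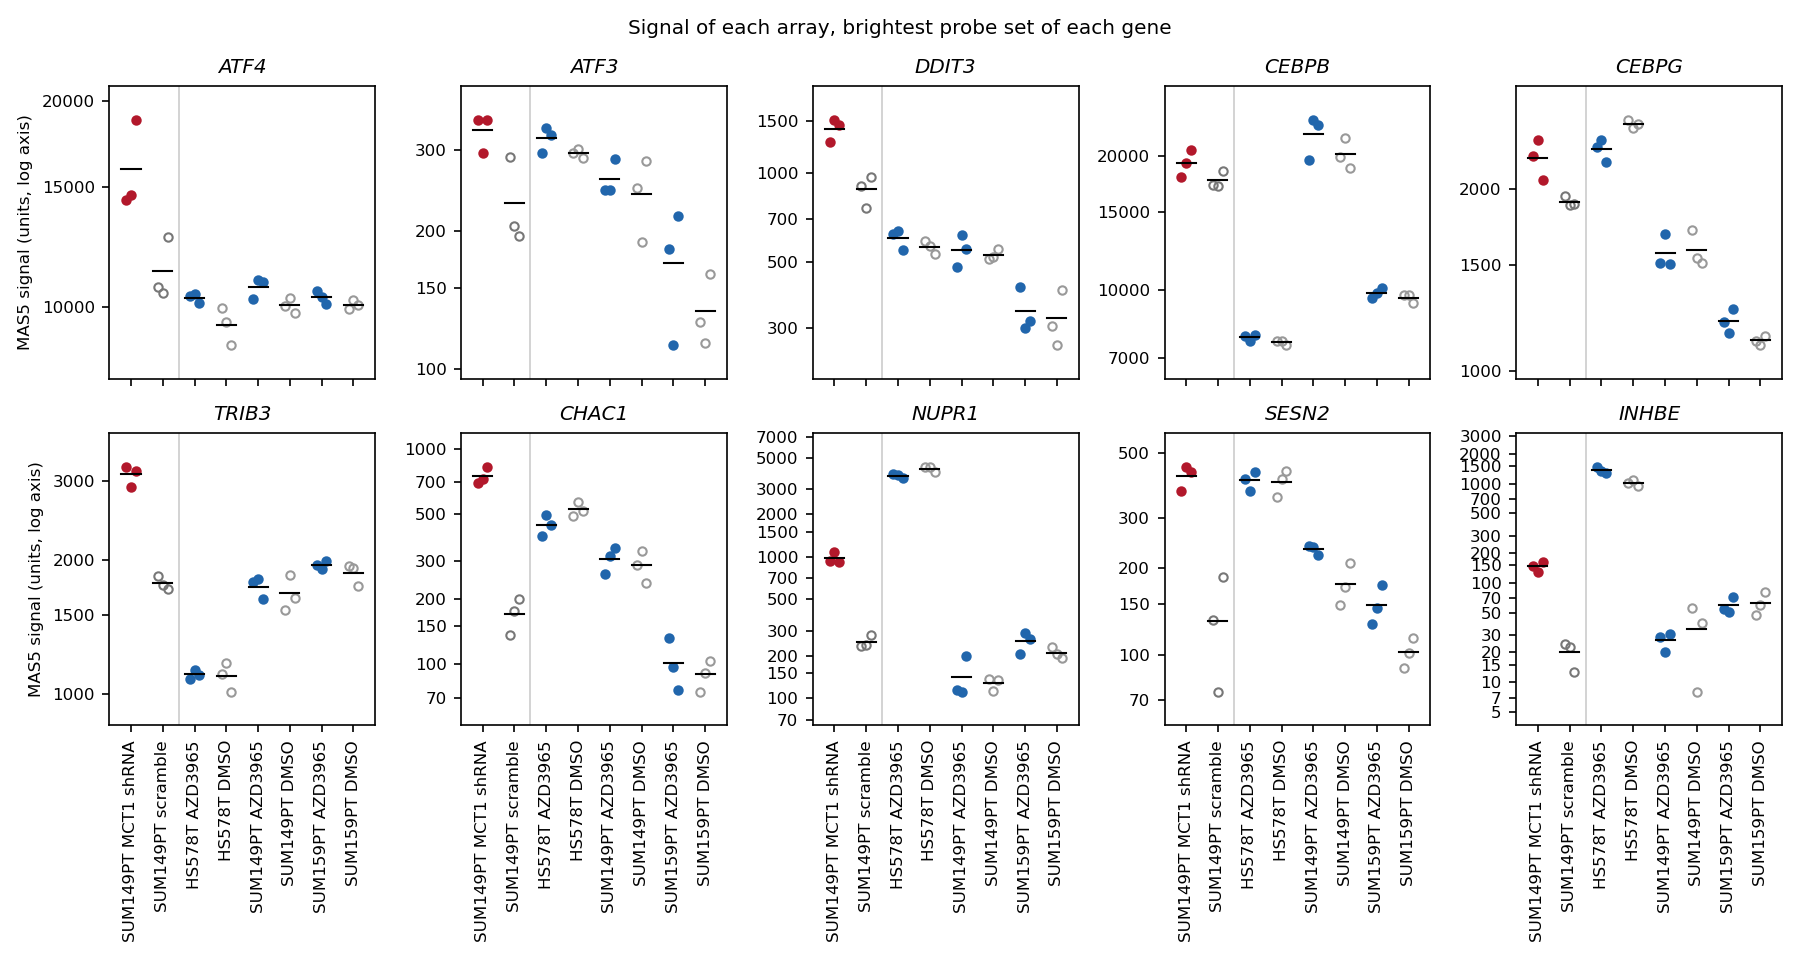
MAS5 signal (log axis) of each array for the brightest probe set of the 10 genes, with the group mean as a bar. The shRNA experiment stands left of the grey line, and the MCT1 shRNA arrays lie above the scramble arrays for every gene but CEBPB, whose arrays overlap.

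With the MCT1 shRNA, 8 of the 10 genes were called higher and 0 lower, where 7.22% of the 14141 genes tested were called higher and 7.64% lower (limma, adjusted p under 0.05). INHBE, CHAC1, NUPR1 and SESN2 had the largest differences, between 1.63 and 2.19 on the log2 scale, and the regulators ATF4, DDIT3 and CEBPG differed by 0.23 to 0.67. ATF3 and CEBPB did not pass the test. The median log2 fold change over the 10 genes was 0.74, against 0.00 over all genes tested. In 9 of the 10 genes no MCT1 shRNA array overlapped a scramble array with the shRNA arrays higher, as in 14.6% of genes tested. Log2 fold changes here are of the signal plus an offset of 16, which understates the change of dim genes. In RNA from bulk cultures, more cells of a kind and more RNA per cell cannot be told apart.

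ATF4, the bZIP factor at the head of the response, had signals of 14358, 14592 and 18770 on the MCT1 shRNA arrays, against 10699, 10491 and 12641 on the scramble arrays. The groups did not overlap, and array 3 was the highest in both. The log2 fold change was 0.49 ± 0.08 (SE, n = 3 each; limma adjusted p = 2.24e-04). It was 0.36 to 0.57 when any 1 array was left out, with an adjusted p of at most 0.00212. In a fit on these 6 arrays alone the adjusted p was 0.0561, which misses the threshold.

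DDIT3 encodes CHOP, a bZIP factor of prolonged stress that can promote cell death. Its signals were 1270, 1509 and 1449 with the MCT1 shRNA, against 906, 762 and 972 with the scramble. Every shRNA array was above every scramble array, and the log2 fold change was 0.67 ± 0.14 (SE, n = 3 each; limma adjusted p = 0.00156). CEBPG, a C/EBP protein that dimerises with ATF4, had 2268, 2414 and 2071 units against 1952, 1883 and 1888 units in scramble cells. Those groups lay close together without overlap, and the log2 fold change was 0.23 ± 0.07 (limma adjusted p = 0.0271). The call did not hold without MCT1 shRNA array 1 (adjusted p = 0.0782) or array 2 (0.142), or without scramble array 2 (0.0594) or array 3 (0.0545). It also missed in a fit on these 6 arrays alone (0.165), and with each array centred on its median, where the log2 fold change was 0.12 and the adjusted p 0.51. A second CEBPG probe set, 225527_at, differed by 0.36 ± 0.09 (adjusted p = 0.0112 in a fit of all 32805 probe sets that passed the filter, of which 10.5% were called).

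ATF3, a bZIP factor induced by many stresses, had 348, 296 and 349 units with the MCT1 shRNA, against 289, 205 and 195 units with the scramble. The groups did not overlap, but the lowest shRNA array and the highest scramble array were 296 and 289 units. The log2 fold change of 0.51 ± 0.19 (95% interval 0.12 to 0.91) missed the threshold at an adjusted p of 0.0701. Without scramble array 1, the highest of its group, it was 0.68 with an adjusted p of 0.0263. The other ATF3 probe sets, 1554980_a_at and 1554420_at, gave 0.40 and 0.49 with adjusted p-values of 0.412 and 0.548 in the probe set fit. CEBPB, a C/EBP factor active in inflammation and differentiation, had 17929, 19360 and 20650 units with the MCT1 shRNA, against 17267, 17178 and 18556 units with the scramble. Its groups overlapped, and the log2 fold change was 0.13 ± 0.07 (limma adjusted p = 0.272).

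Among the effectors, TRIB3, a pseudokinase that binds AKT and restrains ATF4 and CHOP, had 3235, 2919 and 3167 units with the MCT1 shRNA, against 1836, 1755 and 1720 units with the scramble. The groups were far apart relative to their spread, and the log2 fold change was 0.81 ± 0.08 (SE, n = 3 each; limma adjusted p = 1.03e-07). A second TRIB3 probe set, 1555788_a_at, had 222, 276 and 203 units against 95.3, 127 and 78 units, and differed by 1.12 ± 0.21 (adjusted p = 0.00138, probe set fit).

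CHAC1, a cytosolic enzyme that breaks down glutathione, had 693, 721 and 826 units with the MCT1 shRNA, against 137, 177 and 201 units with the scramble. Its lowest shRNA array stood well above its highest scramble array, and the log2 fold change was 2.03 ± 0.17 (SE, n = 3 each; limma adjusted p = 2.73e-08). NUPR1, a small stress-induced chromatin protein, had 929, 1083 and 922 units against 232, 237 and 281 units in scramble cells. It differed by 1.90 ± 0.15 on the log2 scale (adjusted p = 1.16e-08), with tight arrays in both groups.

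SESN2, a sestrin that restrains the growth kinase mTORC1 when leucine is short, had 371, 450 and 430 units with the MCT1 shRNA, against 132, 74.8 and 187 units with the scramble. The scramble arrays scattered widely but all lay below the shRNA arrays, and the log2 fold change was 1.63 ± 0.20 (SE, n = 3 each; limma adjusted p = 4.45e-06). A second SESN2 probe set, 223195_s_at, had 341, 295 and 361 units against 138, 156 and 144 units, with a log2 fold change of 1.11 ± 0.18 (adjusted p = 3.49e-04, probe set fit). INHBE, a subunit of the secreted activins that is best known from liver, had 149, 128 and 162 units with the MCT1 shRNA, against 24.4, 22.7 and 12.7 units with the scramble. Its log2 fold change was 2.19 ± 0.27 (adjusted p = 4.86e-06). The scramble signals were close to the offset, so this value moved with it, to 2.86 at an offset of 1 and 1.33 at an offset of 64.

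Without scramble array 3, 7 of the 10 genes were called, CEBPG being the one lost. The log2 fold changes without it were 0.57 for ATF4, 0.75 for DDIT3, 0.79 for TRIB3, 2.14 for CHAC1, 1.98 for NUPR1, 1.89 for SESN2 and 2.03 for INHBE. The epithelial marker sum was also higher with the MCT1 shRNA, at 59882 to 64769 units against 46782 to 50462 with the scramble, and so was the adipocyte marker sum, at 20.5 to 109 against 12.4 to 15.8 units. The adipocyte signals were near the floor: the scramble sums lay under the offset of 16, and only 1 of the 3 markers passed the filter on low signals. The mesenchymal (5 genes), leukocyte and endothelial sums overlapped between these groups. The part of any marker difference in the members' values was not tested.

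**Figure D2:**
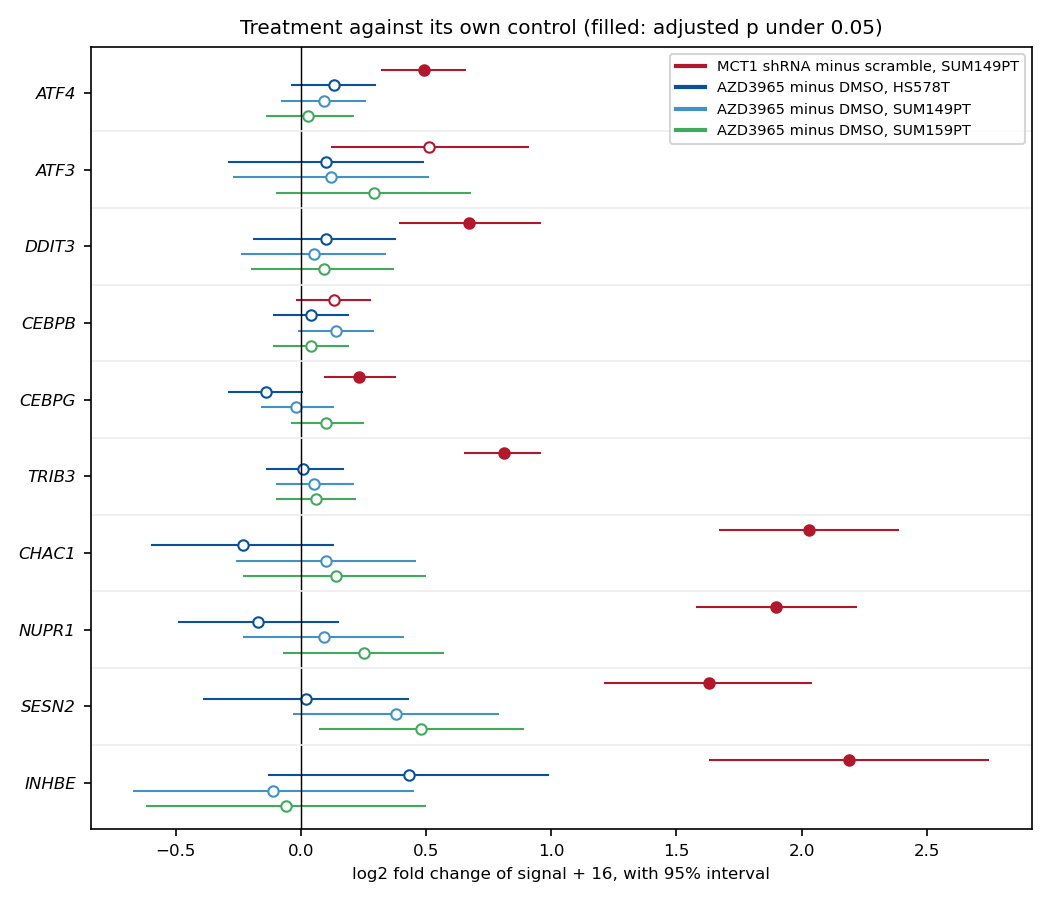
Log2 fold change of the signal plus 16, with its 95% interval, for each gene under the MCT1 shRNA and under AZD3965 in each line; filled points have an adjusted p under 0.05. All 8 filled points belong to the shRNA comparison, and none of the 30 AZD3965 points is filled.

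Promoter windows from RefSeq (GRCh38.p14, 250 bases before to 50 after each annotated start) were searched on both strands for TGATGNAA, the core of the C/EBP-ATF response element. Windows were found for 8 of the 10 genes, and 3 of the 8 (37.5%) held the motif, against 4.46% of 27305 genes. Parts of these windows are shown because they place the letters of the element in members of the set, with the motif in capitals and each read 5′ to 3′ on the gene's own strand. CHAC1 holds it in reverse complement, 209 bases before the start, at chr15:40953221-40953319, plus strand. CEBPG holds it 42 bases before 1 of its starts, at chr19:33374021-33374112, plus strand. ATF3 holds it 191 bases before the upstream of its starts, at chr1:212565166-212565273, plus strand. ASNS, asparagine synthetase, is no member and is shown as a well-studied target of ATF4, with the motif 68 bases before an annotated start at chr7:97872419-97872526, minus strand.
CHAC1: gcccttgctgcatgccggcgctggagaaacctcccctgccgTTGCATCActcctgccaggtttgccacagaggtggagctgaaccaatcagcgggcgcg
CEBPG: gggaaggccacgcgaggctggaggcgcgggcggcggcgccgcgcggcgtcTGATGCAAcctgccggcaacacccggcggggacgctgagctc
ATF3: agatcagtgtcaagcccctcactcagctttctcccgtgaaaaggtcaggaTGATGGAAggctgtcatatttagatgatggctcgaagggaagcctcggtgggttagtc
ASNS: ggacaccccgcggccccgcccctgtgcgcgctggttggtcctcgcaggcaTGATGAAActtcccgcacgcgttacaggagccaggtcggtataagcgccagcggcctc

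The matches differed between them: CHAC1 holds TTGCATCA, the reverse complement of the TGATGCAA found in CEBPG, while ATF3 holds TGATGGAA and ASNS holds TGATGAAA. Of the genes shown, CHAC1, CEBPG and ASNS were called higher with the MCT1 shRNA and ATF3 was not. The windows of ATF4, DDIT3, CEBPB, TRIB3 and SESN2 did not hold these letters, and ATF4, DDIT3, TRIB3 and SESN2 of these were called higher as well. Among the pathway lists described next, the motif stood in a window of 7 of 11 genes of tRNA charging and export (63.6%), 5 of 14 amino acid genes (35.7%) and 3 of 23 other bZIP factors (13.0%). It stood in 1 of 14 genes of the eIF2 group (7.14%), 1 of 15 further effectors (6.67%), 1 of 15 genes of the endoplasmic reticulum (6.67%) and 0 of 8 relatives of the effectors. A match of letters is a description of the sequence and does not show binding.

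The other genes of the pathway were taken from lists written by role, with earlier results of these data known. With the MCT1 shRNA, 7.22% of all genes tested were called higher and 7.64% lower, the shares to set beside the counts of each list. Of 19 genes of amino acid supply known as ATF4 targets, 13 were called higher with the MCT1 shRNA and 0 lower, with a median log2 fold change of 0.55 against 0.00 over all genes tested. SLC3A2, the shared heavy chain of several amino acid exchangers, averaged 9557 units against 3183 in scramble cells (log2 fold change 1.59 ± 0.08; limma adjusted p = 1.91e-12). ASNS averaged 11443 against 4819 units (1.25 ± 0.07). SLC7A11, the cystine importer, differed by 1.38 ± 0.10, and PCK2, a mitochondrial gluconeogenic enzyme, by 1.12 ± 0.10. Such amino acid transporters and enzymes are known targets of ATF4, but whether ATF4 raised them here was not tested. Without scramble array 3 the count was 14.

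Of 12 genes of tRNA charging and export, 10 were called higher and 0 lower, with a median of 0.45. XPOT, a tRNA exporter and no synthetase, was among the 12 and was not called. AARS1 and WARS1, which charge tRNA with alanine and tryptophan, differed by 0.84 ± 0.08 and 0.88 ± 0.09 on the log2 scale. EPRS1 and CARS1 differed by 0.53 ± 0.08 and 0.60 ± 0.09. The count was 7 to 9 when 1 array was left out and 8 without scramble array 3. With each array centred on its median it became 6. Centring moved the median of all genes to -0.12.

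Of 16 further stress effectors, 8 were called higher and 0 lower, with a median of 0.31. NDRG1, a stress-responsive protein also induced by hypoxia, averaged 7861 units against 2944 in scramble cells (log2 fold change 1.41 ± 0.08; limma adjusted p = 5.93e-11). VEGFA, the angiogenic growth factor, averaged 5305 against 2519 units (1.07 ± 0.11). STC2, a secreted glycoprotein, differed by 1.44 ± 0.18, and NIBAN1, a protein induced by stress of the endoplasmic reticulum, by 0.82 ± 0.11. The count stayed at 8 without scramble array 3. It was 6 with each array centred on its median, in the fit on the 6 arrays alone and with a gene's probe sets averaged. With an offset of 64 it was 9. Both NDRG1 and VEGFA have other well-known inducers besides ATF4.

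Of 14 chaperone and degradation genes of the endoplasmic reticulum, 6 were called higher and 2 lower, with a median of 0.27. DNAJB9, a co-chaperone of HSPA5, averaged 3894 units against 1299 in scramble cells (log2 fold change 1.57 ± 0.07; limma adjusted p = 6.42e-13). HERPUD1 and SEL1L, parts of the degradation machinery, differed by 1.12 ± 0.07 and 0.73 ± 0.11, and EDEM1 by 0.65 ± 0.09. The lower genes, named after their values were seen, were CALR at -0.51 ± 0.14 and PDIA4 at -0.32 ± 0.08, a lectin chaperone and a disulfide isomerase. Of these 2 calls 1 was left without MCT1 shRNA array 1 or scramble array 1 or 3, in the fit on the 6 arrays alone and with a gene's probe sets averaged. The count of higher genes was 6 without scramble array 3. It was 5 with each array centred on its median and in the fit on the 6 arrays alone.

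Upstream of ATF4, a list of 15 genes was taken, most of them for eIF2 kinases, eIF2, eIF2B and phosphatase subunits. In it 1 gene was called higher and 2 lower, with a median of 0.00. IMPACT, OMA1 and DELE1, which are of none of these kinds, were among the 15 and were not called. Over all genes tested, 7.22% were called higher and 7.64% lower. The one called higher was EIF2AK3, which encodes the kinase PERK, at 1568 units against 1080 in scramble cells (log2 fold change 0.53 ± 0.12; limma adjusted p = 0.00316). With each array centred on its median, or with a gene's probe sets averaged, it was not called. EIF2AK1, the haem-regulated kinase, was lower by -0.32 ± 0.09 and EIF2B3 by -0.33 ± 0.10. These 2 lower calls became 0 in the fit on the 6 arrays alone and without MCT1 shRNA array 2, and 1 without MCT1 shRNA array 1 or 3 or scramble array 1 or 3. PPP1R15B, a phosphatase subunit that reverses the phosphorylation, differed by 0.15 ± 0.10 (adjusted p = 0.358).

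Of 25 other bZIP factors measured, 5 were called higher and 2 lower, with a median of 0.05, where 7.22% of genes tested were called higher and 7.64% lower. XBP1, the factor of the IRE1 branch of the unfolded protein response, averaged 2372 units against 1463 in scramble cells (log2 fold change 0.70 ± 0.10; limma adjusted p = 3.28e-05). CREB3L2 differed by 0.83 ± 0.15 and BACH1, a haem-binding repressor, by 0.50 ± 0.11, while the AP-1 subunit FOSL1 was lower by -0.79 ± 0.10. The remaining calls, named after their values were seen, were JUN at 0.24 ± 0.08, CEBPD at 0.27 ± 0.09 and JUNB at -0.63 ± 0.16. With each array centred on its median, 2 of these factors were called higher in place of 5. It was 3 in the fit on the 6 arrays alone and without the trend, 3 to 5 when 1 array was left out, the lower counts being without MCT1 shRNA array 1 or scramble array 1 or 2, and 5 without scramble array 3.

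Of 10 genes from the families of the effectors, 0 were called higher and 2 lower, with a median of -0.02. Among all genes tested, 7.22% were called higher and 7.64% lower. SESN1, a sestrin known as a p53 target, averaged 133 units against 232 in scramble cells (log2 fold change -0.73 ± 0.14; limma adjusted p = 6.39e-04), and CHAC2, a slower relative of CHAC1, averaged 3446 against 4641 units (-0.42 ± 0.12). INHBA and INHBC, other activin subunits, differed by 0.21 ± 0.12 and 0.27 ± 0.16 and did not pass. Of the 2 lower calls 1 was left without MCT1 shRNA array 2 or 3 or scramble array 3 and in the fit on the 6 arrays alone. Without MCT1 shRNA array 2, 1 gene was called higher. No difference between these relatives and the members was tested.

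**Figure D3:**
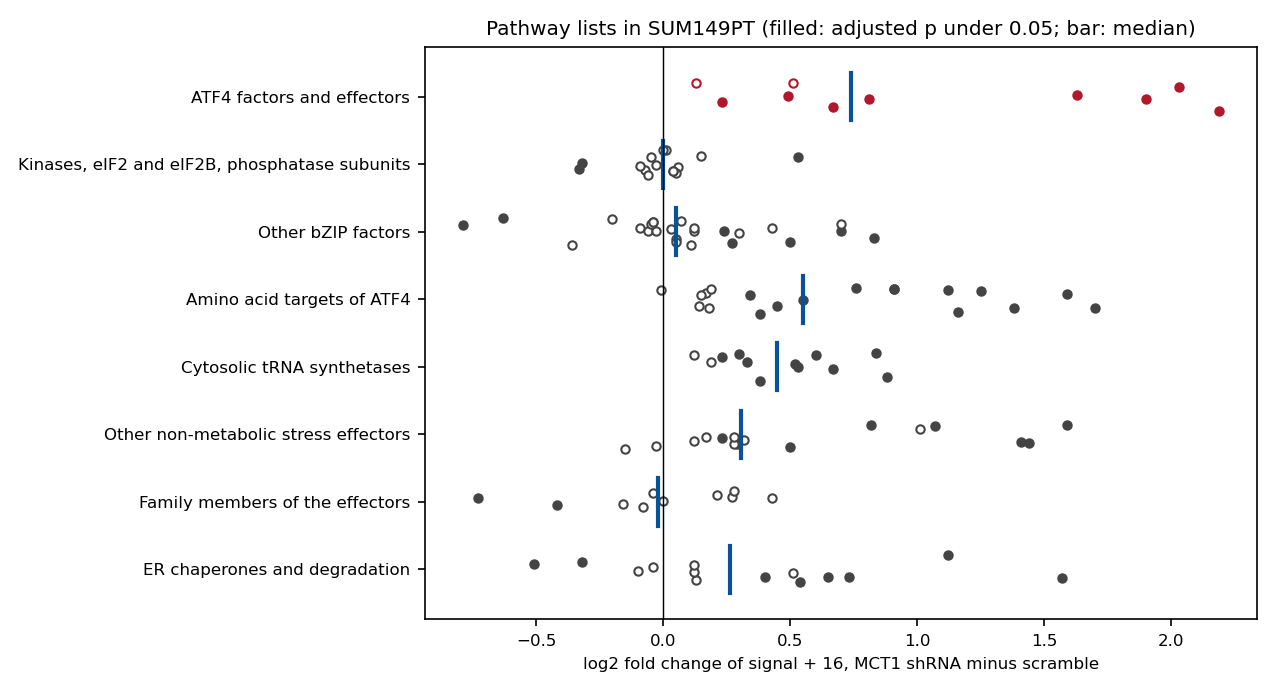
Log2 fold change of the signal plus 16 (MCT1 shRNA minus scramble, SUM149PT) for each gene of the set, in red at the top, and of 7 pathway lists; filled points have an adjusted p under 0.05 and the bar is the list's median. The medians are 0.74 for the set, 0.55 for amino acid targets and 0.45 for the tRNA synthetase list, which includes XPOT. The list of kinases and eIF2 genes, which includes IMPACT, OMA1 and DELE1, has a median of 0.00.

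With AZD3965, 0 of the 10 genes were called in any line, where limma called 0.304% of genes tested in HS578T, 0.0283% in SUM149PT and 0% in SUM159PT. The median log2 fold change over the 10 genes was 0.03 in HS578T, 0.09 in SUM149PT and 0.10 in SUM159PT, against -0.02, 0.04 and 0.00 over all genes tested. At an unadjusted p under 0.05 the counts were 0, 0 and 1 of 10, where 8.28%, 16.5% and 6.75% of genes tested reached that level. In SUM149PT 648 genes in place of 4 were called without AZD3965 array 1, and 0 members. Averaged over the lines 0 of 10 were called, where 0.0283% of genes were, and 1 of 10 at an unadjusted p under 0.05, where 14.5% of genes were. A test of whether the effect differed between lines called 0 of 10 members and 0.12% of genes, and at an unadjusted p under 0.05 it reached 0 members, where 9.99% of genes were.

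ATF4 had 10400, 10441 and 10135 units with AZD3965, against 9984, 9512 and 8815 units with DMSO, in HS578T. It had 10289, 10969 and 10870 against 10056, 10314 and 9822 units in SUM149PT, and 10547, 10337 and 10127 against 9941, 10255 and 10071 units in SUM159PT. The groups stood apart in HS578T by a narrow gap and overlapped in the other lines. The log2 fold changes were 0.13 (95% interval -0.04 to 0.30), 0.09 (-0.08 to 0.26) and 0.03 (-0.14 to 0.21).

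DDIT3 averaged 604, 552 and 343 units with AZD3965 in HS578T, SUM149PT and SUM159PT, against 563, 530 and 324 units with DMSO, and its groups overlapped in every line. The log2 fold changes were 0.10, 0.05 and 0.09, with upper 95% bounds of 0.38, 0.34 and 0.37. TRIB3 averaged 1106, 1741 and 1947 units with AZD3965, against 1098, 1680 and 1867 units with DMSO. Its differences were 0.01, 0.05 and 0.06, with upper bounds of 0.17, 0.21 and 0.22. The second TRIB3 probe set, 1555788_a_at, gave -0.16, -0.27 and 0.29 in the same lines. Its upper bounds were wider in HS578T and SUM159PT, at 0.28, 0.17 and 0.74 (probe set fit). CHAC1 averaged 443, 309 and 102 units with the drug, against 523, 288 and 89.7 units with DMSO. Its log2 fold changes were -0.23, 0.10 and 0.14, and their intervals reached from -0.60 to 0.50. For ATF4, DDIT3, TRIB3 and CHAC1 the log2 fold change of the shRNA comparison lies above the upper bound of the AZD3965 interval in all 3 lines.

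SESN2 had the lowest adjusted p of the 10 genes for the average over the lines, though within single lines the lowest was that of CEBPB in SUM149PT (limma adjusted p = 0.334). SESN2 had 239, 237 and 223 units with AZD3965, against 149, 173 and 208 units with DMSO, in SUM149PT, and 128, 146 and 175 against 90.7, 102 and 115 units in SUM159PT. In both of those lines the drug arrays were all above the DMSO arrays, while in HS578T the groups overlapped at 407, 372 and 432 against 353, 407 and 434 units. The log2 fold changes were 0.38 ± 0.20 in SUM149PT, 0.48 ± 0.20 in SUM159PT (unadjusted p = 0.025, limma adjusted p = 0.728) and 0.02 ± 0.20 in HS578T. Averaged over the lines it was 0.29 ± 0.11 (unadjusted p = 0.018, adjusted p = 0.255). The second SESN2 probe set gave -0.17, 0.14 and -0.03 in those lines, and the average of that probe set was -0.02 ± 0.11.

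INHBE had 1482, 1343 and 1287 units with AZD3965, against 1007, 1096 and 938 units with DMSO, in HS578T. The groups did not overlap there, yet the log2 fold change of 0.43 ± 0.27 (95% interval -0.13 to 0.99) had an adjusted p of 0.741 in limma, whose estimate of the spread comes from all 8 groups. In SUM149PT and SUM159PT it averaged 26.3 and 59.2 units with the drug, against 34.2 and 63.1 units with DMSO. NUPR1 had 3805, 3786 and 3585 units with AZD3965, against 4312, 4288 and 3951 units with DMSO, in HS578T, and a log2 fold change of -0.17 ± 0.15. Its drug arrays were all the lower ones, by a margin smaller than the error of the fit. In total 5 of the 10 genes had groups without overlap in HS578T, 1 in SUM149PT and 2 in SUM159PT, where 19.3%, 21.0% and 12.6% of genes tested had. Beside INHBE, ATF4 and CEBPB were the higher ones in HS578T and CEBPG and NUPR1 the lower ones.

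ATF3, CEBPB and CEBPG differed by at most 0.29 on the log2 scale with AZD3965 in any line. ATF3 averaged 318, 260 and 171 units with the drug, against 295, 240 and 134 units with DMSO, in HS578T, SUM149PT and SUM159PT. CEBPB averaged 7803, 22453 and 9840 units against 7606, 20289 and 9593 units. CEBPG averaged 2328, 1567 and 1209 units against 2568, 1587 and 1124 units. Over the average of the lines, 0 genes of the 7 pathway lists were called in either direction. In HS578T alone, 3 of the 110 list genes tested were called with AZD3965 (2.73%, where 0.304% of all genes were), with NDRG1 at 0.50 ± 0.08 and the endoplasmic reticulum factor MANF at 0.36 ± 0.07 higher, and BCL2L11, a pro-apoptotic BCL2 relative, lower at -0.56 ± 0.12.

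The shRNA and the drug were compared directly in SUM149PT, as the difference between the effect of the shRNA over the scramble and that of AZD3965 over DMSO, which share no arrays. The effect of the shRNA was called higher for 7 of the 10 genes and lower for 0, where 4.58% of genes tested were called higher and 4.94% lower. The differences were 2.30 on the log2 scale for INHBE (limma adjusted p = 4.51e-04), 1.93 for CHAC1 (2.52e-05), 1.81 for NUPR1 (1.26e-05), 1.25 for SESN2 (0.00681) and 0.75 for TRIB3 (8.92e-05). ATF4 differed by 0.40 (0.0335) and DDIT3 by 0.62 (0.0454). ATF3, CEBPG and CEBPB, at 0.39, 0.25 and -0.02, did not pass. The experiments also differ in duration, in lentivirus and in puromycin, which cannot be told apart from the kind of MCT1 perturbation.

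The calls of ATF4 and DDIT3 in that comparison were lost under many alternatives. For ATF4 the adjusted p was 0.0513 to 0.0866 without any 1 of 8 of the 12 arrays, namely MCT1 shRNA array 3, scramble arrays 1 and 2, all 3 SUM149PT AZD3965 arrays and SUM149PT DMSO arrays 1 and 2. For DDIT3 it was 0.0612 to 0.103 without any 1 of 9, namely MCT1 shRNA arrays 2 and 3, scramble arrays 1 and 2, AZD3965 arrays 1 and 3 and all 3 DMSO arrays. With all arrays in, ATF4 missed with median centring (adjusted p = 0.242), on the arrays of the comparison alone (0.124) and without the mean-variance trend (0.0602). DDIT3 missed with median centring (0.0928), an offset of 1 (0.0542), no filter (0.0616), averaged probe sets (0.053) and no trend (0.0597). CEBPG passed with averaged probe sets (0.32, adjusted p = 0.0319). Without scramble array 3, 7 members were called, with ATF4 at 0.49 (0.00738) and DDIT3 at 0.70 (0.0351). For TRIB3, CHAC1, NUPR1, SESN2 and INHBE the adjusted p stayed at or below 0.0225 whichever array was left out.

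Across all 8 groups, the MCT1 shRNA group had the highest mean of ATF4, ATF3, DDIT3, TRIB3, CHAC1 and SESN2 by the brightest probe sets. It had the third highest mean of CEBPB, CEBPG, NUPR1 and INHBE. In the other probe sets of SESN2 and CEBPG it was the highest group. In TRIB3 1555788_a_at it was not, at 234 units against 267 in SUM159PT with AZD3965. In ATF3 1554980_a_at it had 115 units, against 158 in SUM149PT with AZD3965. In ATF3 1554420_at it had 55.7 units, against 82.5 in SUM159PT under DMSO. The scramble cells and the DMSO cells of SUM149PT come from different experiments and were not tested against each other. They were close for ATF4 (11277 and 10064 units) and for the brightest TRIB3 probe set (1770 and 1680 units). They stood further apart for DDIT3 (880 and 530 units), NUPR1 (250 and 128 units) and CHAC1 (172 and 288 units). The second TRIB3 probe set, 1555788_a_at, also stood apart, at 100 and 237 units, and its MCT1 shRNA mean was 234 units. Each treatment was therefore read only against its own control.

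Under DMSO, most of the 10 genes differed between the lines, as did most genes tested, but ATF4 did not. Its log2 differences were -0.09 (95% interval -0.27 to 0.08) for HS578T minus SUM149PT, -0.10 (-0.27 to 0.07) for HS578T minus SUM159PT and 0.00 (-0.18 to 0.17) for SUM149PT minus SUM159PT, and the arrays of the lines overlapped. For HS578T minus SUM149PT, 5 members were called higher and 2 lower, where 30.4% of genes were called higher and 33.8% lower. For HS578T minus SUM159PT the counts were 7 and 2, where the shares were 27.3% and 30.7%, and for SUM149PT minus SUM159PT 6 and 2, where they were 30.0% and 29.3%. The 3 pairwise comparisons share arrays. Differences between lines were this common over all genes tested, and the values below are a description of how each gene is set in each line.

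NUPR1 and INHBE set HS578T apart from the other lines. NUPR1 had 4312, 4288 and 3951 units in HS578T, against 136, 113 and 134 units in SUM149PT and 228, 206 and 192 units in SUM159PT. The HS578T arrays lay far above all others, by log2 differences of 4.87 ± 0.15 over SUM149PT and 4.23 ± 0.15 over SUM159PT (limma adjusted p = 3.15e-18 and 7.43e-17). INHBE had 1007, 1096 and 938 units in HS578T, against 55.3, 8.01 and 39.1 units in SUM149PT and 47.3, 60.3 and 81.6 units in SUM159PT. Its differences were 4.50 ± 0.27 and 3.72 ± 0.27. SUM149PT minus SUM159PT was -0.77 ± 0.27 for INHBE, with overlapping arrays, and that call was lost without SUM149PT DMSO array 2 (log2 difference -0.31, adjusted p = 0.226) or SUM159PT DMSO array 3 (-0.61, 0.0871), and on the 6 arrays alone (adjusted p = 0.124). With the MCT1 shRNA, NUPR1 and INHBE in SUM149PT averaged 978 and 147 units, against 4184 and 1014 units in HS578T under DMSO, a comparison across experiments that was not tested.

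CHAC1, SESN2 and CEBPG followed the same order of lines, HS578T highest, then SUM149PT, then SUM159PT, with every step called for the brightest probe set. CHAC1 had 488, 566 and 514 units in HS578T, against 290, 335 and 238 units in SUM149PT and 74.6, 90.9 and 104 units in SUM159PT. No arrays of different lines overlapped, and the difference between HS578T and SUM159PT was 2.36 ± 0.17 on the log2 scale. SESN2 averaged 398 units in HS578T, 177 in SUM149PT and 103 in SUM159PT, and CEBPG averaged 2568, 1587 and 1124 units in the same lines. The second SESN2 probe set averaged 259, 145 and 105 units, and its step between SUM149PT and SUM159PT did not pass (0.39, adjusted p = 0.0807, probe set fit). ATF3 averaged 295, 240 and 134 units and DDIT3 averaged 563, 530 and 324 units. For both of these HS578T minus SUM149PT was not called, at 0.30 ± 0.19 and 0.08 ± 0.14, and SUM159PT was lower than either. The ATF3 arrays of HS578T still all lay above those of SUM149PT, at 296, 302 and 288 against 248, 189 and 284 units. For ATF3 the difference between SUM149PT and SUM159PT rested on the brightest probe set. With its probe sets averaged, SUM149PT minus SUM159PT was 0.30 in place of 0.77 (adjusted p = 0.139). Probe set 1554980_a_at gave 0.56 (0.091, probe set fit), and in 1554420_at SUM159PT had the highest mean, at 82.5 units against 67.2 in HS578T and 55.6 in SUM149PT, with no difference called.

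CEBPB and TRIB3 were ordered otherwise. CEBPB had 7667, 7644 and 7507 units in HS578T, against 19982, 22005 and 18879 units in SUM149PT and 9707, 9725 and 9346 units in SUM159PT. SUM149PT was the highest line with no overlap, and HS578T minus SUM149PT was -1.41 ± 0.07 (limma adjusted p = 3.04e-14). TRIB3 had 1109, 1174 and 1011 units in HS578T, against 1546, 1849 and 1645 units in SUM149PT and 1937, 1916 and 1747 units in SUM159PT. HS578T was the lowest line at -0.61 ± 0.08 below SUM149PT, while SUM149PT and SUM159PT overlapped at -0.15 ± 0.08 (adjusted p = 0.0883). That last difference passed without SUM149PT DMSO array 2 (-0.22, adjusted p = 0.0213) or SUM159PT DMSO array 3 (-0.20, 0.0465). In the second TRIB3 probe set, 1555788_a_at, HS578T was also the lowest line, at 124 units against 237 in SUM149PT and 215 in SUM159PT. There SUM149PT minus SUM159PT had the other sign and was not called (0.13, adjusted p = 0.647, probe set fit). Thus the line with the lowest TRIB3 had the highest CHAC1, SESN2, NUPR1 and INHBE.

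**Figure D4:**
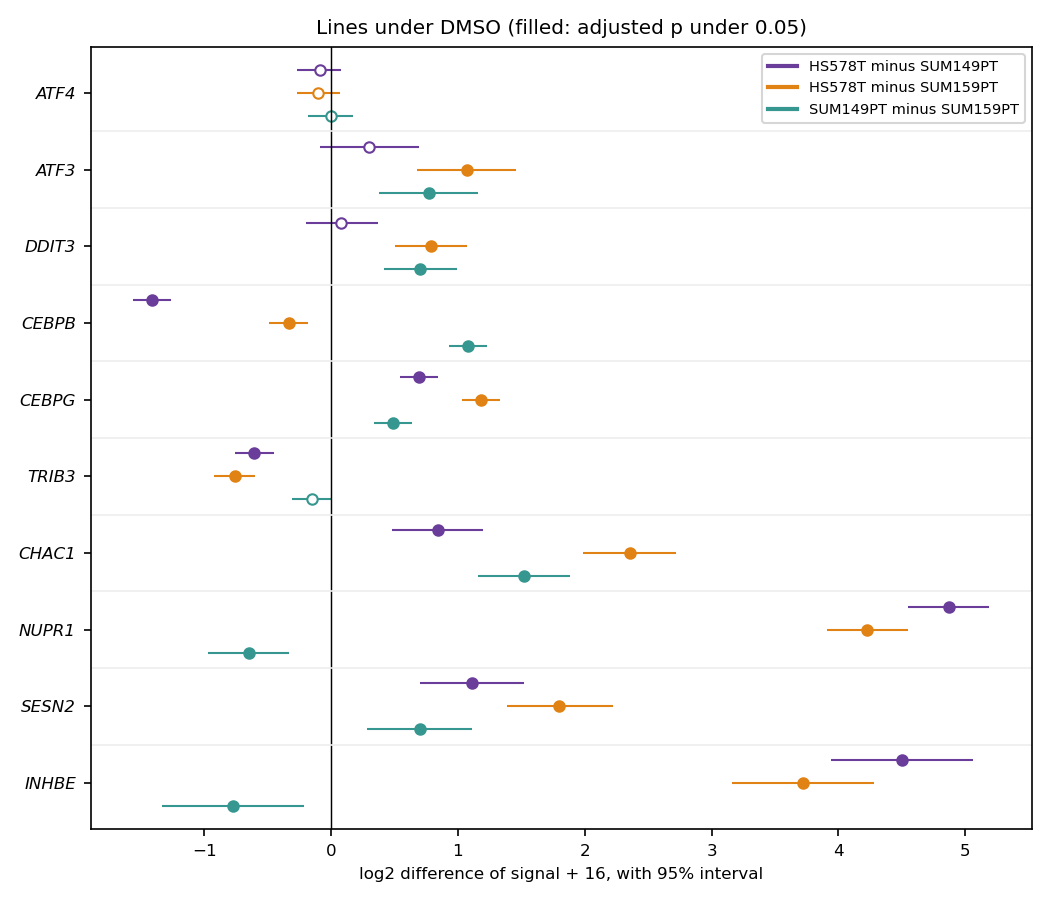
Log2 difference of the signal plus 16 between lines under DMSO, with its 95% interval, for each gene; filled points have an adjusted p under 0.05. ATF4 lies between -0.10 and 0.00 in the 3 comparisons, NUPR1 and INHBE reach 4.87 and 4.50 for HS578T minus SUM149PT, and CEBPB reaches -1.41.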

How the data were processed

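The deposited intensity values of 24 Affymetrix arrays were made with MAS5 on a linear scale, per the submitters' processing notes, in a version not given in the sources used here. With 2% of values trimmed from either end the mean of every array was 499.9, and no further normalization was applied. Of 54675 probe sets, 41097 had 1 gene symbol in the annotation used, 1801 had several and 11777 none. Each gene was represented by its probe set of highest mean. Log2 of the signal plus 16 was fitted with limma 3.58.1 in R 4.3.3 as 8 group means over all 24 arrays (16 residual degrees of freedom, mean-variance trend, two-sided tests). Features with a mean at or above the 40th percentile of probe sets (5.58) were tested, and an adjusted p (Benjamini-Hochberg over all 14141 genes, or over 32805 probe sets where stated) under 0.05 was a call. The number of arrays limits the precision.

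The genes and lists were chosen with earlier results of these data known. The text names all 10 members, in each list the 4 genes of smallest p with the shRNA and the 3 for the AZD3965 average, and the 3 genes most alike in pattern to each of ATF4, DDIT3, TRIB3 and CHAC1. Of the list entries, ATF1, MAFK, GPT2, MARS1, BBC3 and SYVN1 were not named in the annotation, and FGF21, RAB39B and CLEC2D were below the filter. The gene targeted by the shRNA is not reported here. The alternatives tried were a quantile normalization, median centring, different offsets, no filter on low signals, averaged probe sets, a fit on the arrays of a comparison alone, a replicate block, no trend, and leaving out each array. The fit was tested on simulated data with known changes.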

Additional observations from a re-analysis of the deposited data

Results flagged for a closer look

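CEBPG arrays lay on opposite sides of the DMSO mean with AZD3965 in 2 lines, and neither change passed. In HS578T all 3 AZD3965 arrays were below the DMSO mean, with a log2 fold change of -0.14 (limma adjusted p = 0.624), and in SUM159PT all 3 were above it, at 0.10 (0.777). The second CEBPG probe set gave -0.08 in HS578T, -0.04 in SUM149PT and -0.03 in SUM159PT. A limma F test over the lines did not pass for CEBPG (adjusted p = 0.547). INHBE likewise was above the DMSO mean on all 3 AZD3965 arrays of HS578T, at 0.43, and below it on all 3 of SUM149PT, at -0.11, where its signals were close to the offset (F test adjusted p = 0.765).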

How the results depend on the processing

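Of the members' values under the alternatives, 1756 kept their side of the threshold, 38 lost a call, 5 gained one, and 1 changed sign and passed. That one was CEBPB in the comparison of the shRNA effect with the AZD3965 effect, at 0.18 (limma adjusted p = 0.0472) with quantile normalization against -0.02. Of the 1756 values, 56 changed sign without a call in either fit. These were 46 AZD3965 effects, 5 shRNA minus AZD3965 effects and 5 differences between lines. Their sizes were at most 0.14 as reported and 0.21 under the alternative. The count of members called with the shRNA was 7 to 9 when 1 array was left out and 6 to 8 under the other alternatives, with AZD3965 it was 0 under all of them, and for the shRNA effect minus the AZD3965 effect it was 5 to 8.

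Counts over all genes moved more. With the shRNA, 2101 genes were called, and 864 in a fit on its 6 arrays alone. For AZD3965 in HS578T 43 were called, and 25 with an offset of 64, 26 with the mean of probe sets, 28 on its own arrays and 15 to 32 without 1 array. In SUM149PT 4 were called, and 2 with the mean of probe sets, 0 on its own arrays and 2 to 648 without 1 array, the highest being without AZD3965 array 1, which also gave the highest count for the average. In SUM159PT 0 were called, and 1 with quantile normalization, 1 with median centring, 9 with an offset of 1 and 0 to 4 without 1 array. For the average 4 were called, and 1 with median centring, 7 with an offset of 1, 9 on its own arrays, 0 without the trend and 0 to 66 without 1 array. The difference between the shRNA and AZD3965 effects gave 1346 calls, and 521 with median centring, 854 with the mean of probe sets, 795 on its own arrays and 874 to 1774 without 1 array. The test between lines gave 17, and 10 with the mean of probe sets, 9 on its own arrays and 3 to 46 without 1 array. The cause of these shifts was not tested beyond the smaller number of arrays in the reduced fits.

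Median centring moved the median of all genes to -0.12 for the shRNA, 0.14 for AZD3965 in HS578T, and -0.12 for HS578T minus either other line. It changed the share of shRNA calls that were higher to 23.1%, against 48.6%, and that of AZD3965 calls in HS578T to 97.1%, against 69.8%.

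Deviations of same-numbered arrays from their group means correlated at -0.131 to 0.083, and those of differently numbered arrays at -0.109 to 0.159. The same-numbered SUM149PT pairs of the inhibitor experiment were all positive, at 0.083, 0.046 and 0.062. With 3 arrays per group these values cannot show whether the arrays were paired, and the labels do not say. With the replicate number as a block, 8 genes were called for AZD3965 in HS578T, 1 for the average and 1 between lines. Under that block CEBPG missed the threshold with the shRNA (adjusted p = 0.0746) and ATF3 passed it (0.0376), and DDIT3 missed it for the shRNA effect minus the AZD3965 effect (0.0703). With the shRNA, the eIF2 group then had 1 lower call in place of 2, and the other bZIP factors 3 higher calls in place of 5.

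Few arrays per group limit what the inhibitor comparisons can show. By the brightest probe sets, the 95% intervals of NUPR1, CHAC1, ATF3, SESN2 and INHBE reached sizes of 0.57, 0.60, 0.68, 0.89 and 0.99 on the log2 scale in at least 1 line. The interval of the second TRIB3 probe set reached 0.74 in SUM159PT.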

Other observations

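Over the 8 group means, the gene whose log2 signal followed ATF4 most closely was SLC31A1, a copper importer (r = 0.984), then CDK5RAP3 (0.947) and BCDIN3D (0.943). For DDIT3 these were SWT1 (0.984), TSPAN31 (0.981) and ZNF652 (0.976), for TRIB3 SPG11 (0.981), PRKAG2 (0.977) and MPHOSPH10 (0.971), and for CHAC1 GFPT1 (0.979), PIK3R3 (0.975) and GDAP1 (0.973). Among the members, NUPR1 and INHBE were most alike (r = 0.968), then CHAC1 and ATF3 (0.956). ATF4 followed TRIB3 and DDIT3 at 0.806 and 0.800. These are descriptions over 8 means that share lines and experiments, taken as the best of many genes.

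For the AZD3965 average over the lines, the 3 genes of smallest p in each list were as follows, none of them called by limma. Among the genes of the endoplasmic reticulum, MANF was at 0.18 (adjusted p = 0.0779), SDF2L1 at 0.23 (0.153) and HERPUD1 at 0.14 (0.187) on the log2 scale. Among the further effectors, BCL2L11 was at -0.25 (0.181), DDIT4 at 0.16 (0.181) and NDRG1 at 0.15 (0.218). Among the genes of tRNA charging and export, SARS1 was at 0.17 (0.189), XPOT at -0.15 (0.292) and AARS1 at 0.08 (0.382). Among the amino acid genes, PHGDH was at 0.20 (0.223), SLC7A11 at -0.15 (0.26) and PYCR1 at 0.16 (0.312). Among the relatives of the effectors, CHAC2 was at -0.23 (0.194), INHBC at -0.20 (0.319) and TRIB2 at 0.10 (0.496). In the eIF2 group, OMA1 was at -0.23 (0.214), EIF2AK3 at -0.17 (0.256) and EIF2B2 at 0.11 (0.331). Among the other bZIP factors, NFE2L2 was at -0.12 (0.218), ATF2 at -0.25 (0.228) and CEBPD at -0.15 (0.231).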
